A study of Acipenser transmontanus and Acipenser medirostris with 18 samples.

Results

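The extracellular matrix and its receptors were followed in long-read transcript counts from sturgeon surface epithelia: the collagens, laminins, SPARC proteins, nidogen, fibronectin and thrombospondins on the matrix side, the integrins on the receptor side, and the kindlins and matrix metalloproteinases that act on them. Members were all transcripts whose deposited protein description named a collagen alpha chain, laminin subunit, integrin alpha or beta, fibronectin-like protein, fermitin family homolog, SPARC, nidogen, thrombospondin, tenascin or matrix metalloproteinase, summed over each PacBio locus. They came to 780 of 70537 transcripts, at 95 of 13249 loci, with 19298 of 2734415 full-length reads (0.706%). No tenascin was found. Of the 95 loci, 57 encoded matrix proteins, 18 integrins, 5 intracellular integrin partners and 11 matrix proteases, and 4 carried a matching word in another kind of protein.

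The series held 18 PacBio Iso-Seq libraries, each counting full-length complementary DNA molecules. Of these, 1 was a green sturgeon culture of fibroblasts and adipocytes from a female, and 6 were primary epithelial cell cultures of the green sturgeon, Acipenser medirostris, from palate, mouth rim and esophagus of males, palate and ampullae of females, and ampullae of a fish whose sex was not given. Another 5 were primary cultures of the white sturgeon, Acipenser transmontanus, from mouth rim (3 libraries) and skin (2 libraries), and 6 were uncultured white sturgeon tissues, namely barbel, ampullae, palate, mouth rim, esophagus and dorsal skin. Fish were broodstock without experimental treatment, and white sturgeon also came from a caviar farm, in part as heads taken after slaughter. The labels do not say which libraries these gave, and the age of the fish was not given in the sources used here. All libraries were labelled octoploid apart from 1 dodecaploid white mouth culture. White sturgeon cultures grew from explants placed before trypsin treatment and green sturgeon cultures from explants placed after it, all in a medium with serum, epidermal growth factor, hydrocortisone, insulin, transferrin and the rho kinase inhibitor Y27632. The paper also states that the epithelial cells were at first grown with a 3T3 feeder layer. The labels do not say whether the sequenced cultures held such feeder cells. The labels did not say which libraries came from the same fish, so each p-value below measures only the spread between these libraries.

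A stratified epithelium rests on a basement membrane, a thin sheet of laminins, network-forming collagens and nidogen. Basal keratinocytes are known in mammals to hold to it through hemidesmosomes, in which integrin alpha-6 beta-4 and the transmembrane collagen XVII bind laminin made of alpha-3, beta-3 and gamma-2 chains, and keratinocytes that migrate into a wound deposit this laminin. Integrins of the beta-1 and alpha-V groups bind fibronectin, collagens and other matrix proteins at focal adhesions, with kindlins as cytoplasmic activators. Fibrillar collagens, SPARC and the thrombospondins are mainly products of fibroblasts in the connective tissue under the epithelium.

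Library totals were 243012 reads in the fibroblast and adipocyte library and ran from 124136 to 302286 reads in the green cultures, from 90002 to 129568 in the white cultures and from 29797 to 204203 in the white tissues. Values are CPM, the reads of a locus in every 1000000 reads of its library, and 1 read was worth 3.31 to 33.6 CPM. At that depth 35 of the 95 loci had fewer than 10 reads in all libraries together, and 24 loci with at least 100 reads held 93.2% of the member reads. Transcripts with no protein name made up 2.85% of the reads in the fibroblast and adipocyte library, 2.67% to 4.57% in green cultures, 1.59% to 2.93% in white cultures, 4.07% to 34.8% in white tissues, and at the member loci themselves such transcripts held 2550 reads. Since transcript lengths were not used, levels are compared between libraries for a gene and not between genes.

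The labelled cell types were checked against marker lists. Summed epithelial markers stood at 4020 CPM in the fibroblast and adipocyte library, 10126 to 96994 CPM in green cultures, 43907 to 106892 CPM in white cultures and 40239 to 191491 CPM in white tissues. Connective tissue markers reached 35163 CPM in the fibroblast and adipocyte library, against a median of 545 CPM in green cultures. The green ampullae culture of unstated sex stood apart from the other green cultures at 7288 CPM of connective tissue markers, and ratios and calls that it moves are given with and without it. The white skin cultures had the highest connective tissue marker sums among white cultures, at 1991 and 1444 CPM, and the barbel, at 622 CPM, among white tissues. The adipocyte markers gave only 12.3 CPM (3 reads) in the fibroblast and adipocyte library, within the 4.64 to 89.3 CPM of the green cultures. They were highest in the white cultures, at 152 to 322 CPM, and stood at 15.9 to 134 CPM in white tissues. Markers that are highest in epithelial cultures cannot decide whether the adipocyte label holds. In these bulk libraries fewer cells of a type and less RNA per cell cannot be told apart.

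Both classes of genes, matrix and receptor, were lower in the white tissues than in the white cultures. The fibroblast and adipocyte library had 3769 CPM of matrix (95% Wilson interval 3533 to 4021) and 724 CPM of integrins, where the interval covers counting error only. Matrix loci summed to 3735 to 9580 CPM in the green cultures (6064 ± 2105, SD, n = 6), 5319 to 14644 CPM in the white cultures (9737 ± 3400, SD, n = 5) and 1074 to 4182 CPM in the white tissues (2467 ± 1258, SD, n = 6). The white cultures and white tissues did not overlap. Integrins summed to 530 to 1755 CPM in the green cultures (791 ± 477, SD, n = 6), 1508 to 4400 CPM in the white cultures (2799 ± 1063, SD, n = 5) and 358 to 676 CPM in the white tissues (501 ± 145, SD, n = 6). The highest green value belonged to the green ampullae culture of unstated sex, and the next green culture had 715 CPM, below every white culture.

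**Figure D1:**
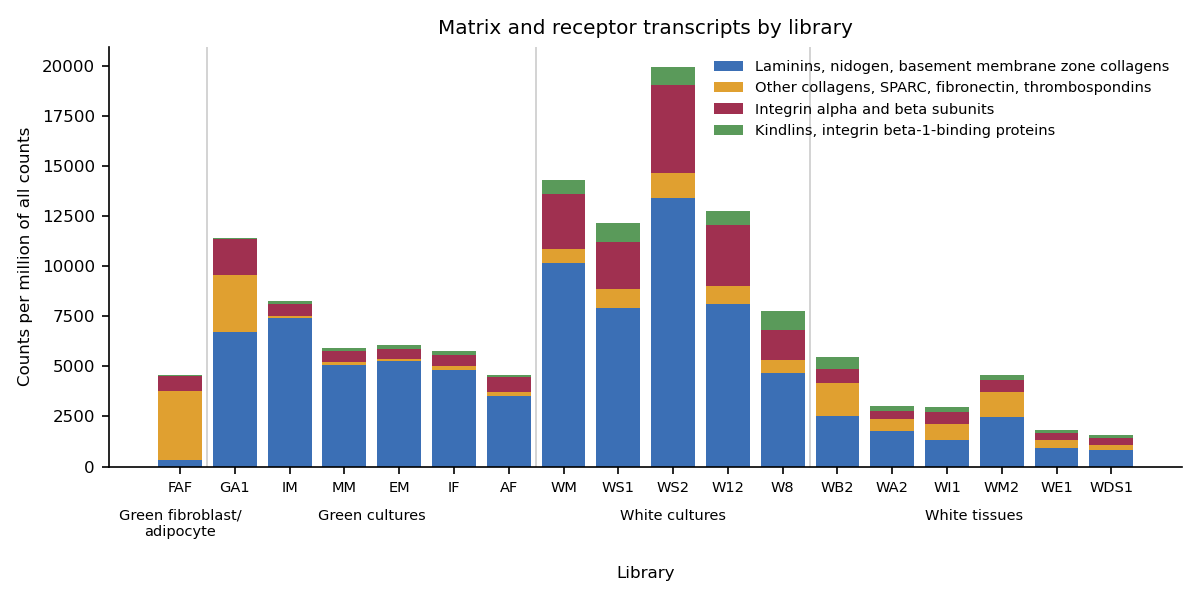
Summed CPM (vertical axis) of basement membrane, other matrix, receptor and partner loci in each of the 18 libraries, with the fibroblast and adipocyte library at the left, then green cultures, white cultures and white tissues. The matrix of the fibroblast and adipocyte library is nearly all outside the basement membrane (3465 of 3769 CPM). By named transcripts, basement membrane loci lead in every epithelial culture.

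The balance of matrix to receptor reads is described with no test. The fibroblast and adipocyte library had 5.20 matrix reads per integrin read, with and without laminin beta-3, of which it had none. Green cultures spread from 5.23 to 11.8, with a median of 9.22. The white cultures had 4.03 matrix reads per integrin read in the mouth culture, 3.80 and 3.33 in the skin cultures, 2.94 in the dodecaploid mouth culture and 3.53 in the remaining mouth culture, all below the green cultures. White tissues spread from 3.00 to 6.23, with a median of 4.87, and overlapped the white cultures. This ratio leans on laminin beta-3: without that locus it was 2.56 to 7.12 in green cultures, 1.82 to 2.60 in white cultures and 2.89 to 6.10 in white tissues, so that the green and white cultures then met at 2.56 and 2.60.

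Basement membrane loci (laminins, nidogen and the collagens of the basement membrane zone) summed to 305 CPM in the fibroblast and adipocyte library, 3530 to 7403 CPM in green cultures, 4653 to 13411 CPM in white cultures and 833 to 2502 CPM in white tissues. The other matrix loci summed to 3465 CPM in the fibroblast and adipocyte library, 88.6 to 2890 CPM in green cultures (158 CPM in the median), 666 to 1233 CPM in white cultures and 241 to 1680 CPM in white tissues. The highest green value, 2890 CPM, was again the green ampullae culture of unstated sex. These sums leave out unnamed transcripts. With all transcripts, that culture had 3211 CPM of collagen I alpha-1 and 1702 CPM of collagen III (PB.11959, named after its values were seen). Their named transcripts had 254 and 127 CPM. The lead of the basement membrane loci in that culture therefore holds for named transcripts only.

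**Figure D2:**
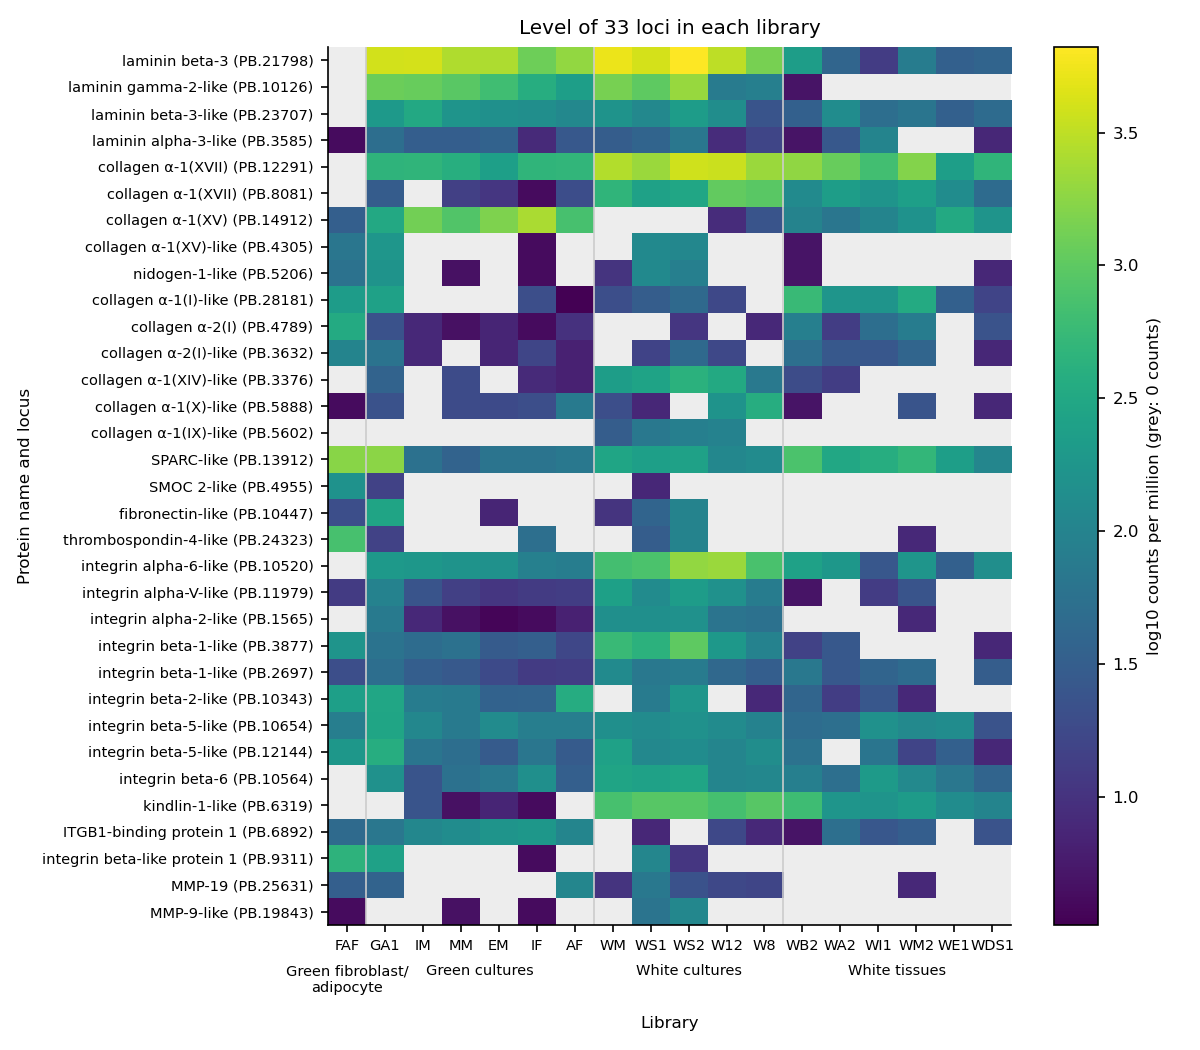
Level of 33 member loci (vertical axis, grouped by role) in the 18 libraries (horizontal axis), as the logarithm to base 10 of CPM, with grey for no read. Laminin beta-3 and gamma-2 are read in every epithelial culture and are low or grey in tissues. The fibroblast and adipocyte column is grey for laminin beta-3, collagen XVII and integrin alpha-6.

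The comparison of white cultures with white tissues asks how matrix and adhesion genes stand in primary cultures relative to the surface tissues of the same species. By the numbering of the labels, all the white cultures belong to another set of libraries than the white tissues. Culture and library set therefore cannot be told apart in this comparison. Laminin beta-3, integrins alpha-6, beta-1 and a beta-5-like locus, both collagen XVII loci and kindlin-1 were higher in the cultures. The collagen XV locus PB.14912 and SPARC were lower. With edgeR, 12 of the 95 member loci had enough reads to be tested, 7 rose, 2 fell and 3 did not pass the false discovery rate of 0.05 (Benjamini-Hochberg over all loci tested). Over all 1864 loci tested, 56.9% passed, 27.6% higher and 29.3% lower in cultures. The libraries of the 2 groups did not overlap for 8 of the 12 members and for 34.4% of all loci tested. The median log2 fold change was 1.28 over the 12 members and -0.04 over all loci. Without the scaling between libraries (TMM), the median over all loci was 0.27, and 602 loci were higher and 405 lower, against 514 and 547 with it; of the members, 8 then rose, with integrin beta-6 added (1.10, edgeR adjusted p = 0.046), and 1 fell. The count of 12 is no sample of the 95: a beta-5-like integrin and integrin beta-1 entered the test only through the cultures, and collagen XV only through the tissues. Laminin beta-3 passed the read filter in 5 cultures but in only 1 tissue, so it too owed its entry to the cultures. The calls and the lack of overlap of these loci are therefore not independent of how they entered.

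Laminin beta-3 (PB.21798) had the most reads of any member. It stood at 5253 CPM in the white mouth culture, 4091 and 6633 CPM in the skin cultures, 3081 CPM in the dodecaploid mouth culture and 1396 CPM in the remaining mouth culture, against a lowest value of 12.9, a median of 39.4 and a highest value of 225 CPM in the 6 tissues. The groups did not overlap, and the barbel was the highest tissue. The log2 fold change was 5.29 ± 0.62 (SE; edgeR adjusted p = 6.23e-06). The locus had entered the test through the cultures, with only 1 tissue past the read filter. Its partner chain laminin gamma-2 (PB.10126) was too rare in tissues for the test. It reached 1396, 996 and 2022 CPM in the mouth and skin cultures, but 78.3 CPM in the dodecaploid and 88.2 CPM in the remaining mouth culture, and 1 read was found in all 6 tissues. Pooled over libraries the culture share was 537 times the tissue share (counting interval 75.5 to 3823). A second locus described as laminin beta-3-like (PB.23707) had 24.1 to 222 CPM in cultures and 33.6 to 133 CPM in tissues, which overlapped (log2 fold change 0.79 ± 0.49, edgeR adjusted p = 0.174). It made up 3.13% of the laminin beta-3 reads in the cultures and 35.3% in the tissues (13.2% to 80% in single tissues), and 59.2% in the tissues without the barbel, which held 46 of their 66 reads of PB.21798.

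Other laminin chains were rare. Laminin alpha-3 (PB.3585), the remaining chain of the hemidesmosomal laminin, had 8.70 to 66.7 CPM in the cultures and 0 to 103 CPM in the tissues, and was not tested. Laminin beta-4 (PB.7334) went the other way, with 1 read in the 5 cultures and 28 reads in the tissues. Both were named after their values were seen. All laminins together came to 1524 to 9000 CPM in the white cultures and 101 to 313 CPM in the white tissues, without overlap.

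Collagen XVII, the transmembrane collagen of hemidesmosomes, came from 2 loci. The main locus (PB.12291) had 2761, 2107, 3855, 3655 and 2118 CPM in the mouth, the skin, the dodecaploid and the remaining mouth culture in that order, against 235 to 1876 CPM with a median of 906 CPM in tissues. All cultures lay above all tissues, and the log2 fold change was 1.16 ± 0.47 (edgeR adjusted p = 0.0419). This call was narrow: in 7 of the 11 fits that left out a library the adjusted p passed 0.05, with a highest value of 0.1. The other locus (PB.8081) had 476, 255, 300, 1062 and 939 CPM in the same cultures and 46.7 to 239 CPM in tissues (log2 fold change 1.61 ± 0.50, edgeR adjusted p = 0.0104). The dodecaploid and remaining mouth cultures, which had the least laminin gamma-2, had the most of this locus.

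Collagen XV, a collagen of the basement membrane zone, fell. The locus PB.14912 had no read in 3 white cultures, 8.70 CPM in the dodecaploid mouth culture and 24.1 CPM in the remaining mouth culture, against 66.4 to 336 CPM with a median of 131 CPM in tissues. The groups did not overlap (log2 fold change -4.40 ± 0.67, edgeR adjusted p = 5.15e-05). In most fits that left out a tissue the locus no longer had enough reads to be tested. The collagen XV-like locus PB.4305, named after its values were seen, was at 123 and 111 CPM in the 2 skin cultures, at 0 in the mouth cultures and at 0 to 4.90 CPM in tissues. Nidogen-1-like (PB.5206), which links laminin to collagen IV networks, followed a like course, with 123 and 88.9 CPM in skin cultures, 0 to 10.3 CPM in mouth cultures and 0 to 7.78 CPM in tissues.

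Integrin alpha-6 (PB.10520), the laminin-binding chain of hemidesmosomes, had 682, 772, 1933, 2115 and 746 CPM in the mouth, skin, dodecaploid and remaining mouth cultures, against 25.8 to 255 CPM with a median of 158 CPM in tissues. No culture overlapped a tissue (log2 fold change 2.80 ± 0.51, edgeR adjusted p = 0.000215). Its hemidesmosome partner integrin beta-4 (PB.15886, named after its values were seen) had few reads, 11 in the white cultures and 23 in the tissues. Its pooled ratio was 0.552 (counting interval 0.269 to 1.13). Over all libraries 27 of the 66 reads of that locus carried no protein name and are left out here. Another beta-4 locus (PB.15352, also named after its values were seen) had 2 against 5 reads. Integrin beta-1-like (PB.3877), the shared chain of many collagen, laminin and fibronectin receptors, had 569, 440, 1011, 191 and 96.3 CPM in the same cultures and 0 to 26.5 CPM in tissues (log2 fold change 5.17 ± 0.72, edgeR adjusted p = 2.37e-05). As with laminin gamma-2, the dodecaploid and remaining mouth cultures were the lowest cultures. The integrin beta-1-like locus PB.2697, also named after its values were seen, differed less, with 32.1 to 124 CPM in cultures and 0 to 68.6 CPM in tissues, and it held 13.5% of the integrin beta-1 reads in cultures against 82.9% in tissues.

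Among the beta chains that pair with integrin alpha-V, a beta-5-like locus (PB.12144) had 259, 116, 133, 104 and 136 CPM in the white cultures and 0 to 64.5 CPM in tissues (log2 fold change 1.87 ± 0.54, edgeR adjusted p = 0.00707). The groups did not overlap, and the mouth culture was the highest. The other beta-5-like locus (PB.10654) overlapped, with 96.3 to 156 CPM in cultures and 23.4 to 155 CPM in tissues (0.30 ± 0.46, adjusted p = 0.591). Integrin beta-6 (PB.10564), an epithelial chain, had 104 to 289 CPM in cultures and 38.9 to 206 CPM in tissues (0.71 ± 0.46, adjusted p = 0.197). Neither change passed edgeR's test. Integrin alpha-V (PB.11979) and the collagen-binding integrin alpha-2 (PB.1565) were too rare in tissues to be tested. Integrin alpha-V had 89 reads in cultures and 5 in tissues, a pooled ratio of 20.5 (counting interval 8.34 to 50.5). Integrin alpha-2 had 61 reads in cultures and 1 in tissues, a pooled ratio of 70.3 (9.75 to 507).

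Kindlin-1 (fermitin family homolog 1, PB.6319), the epithelial kindlin, lay within a narrow range in the white cultures, at 734, 926, 889, 696 and 915 CPM. The tissues lay at 101 to 617 CPM with a median of 170 CPM, and the barbel was the highest. The log2 fold change was 1.40 ± 0.44 (edgeR adjusted p = 0.0117), without overlap.

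SPARC (PB.13912), a collagen-binding glycoprotein, fell in the cultures. It had 290, 239, 256, 113 and 128 CPM in the white cultures, against 109 to 779 CPM with a median of 346 CPM in tissues. The groups overlapped (log2 fold change -1.34 ± 0.47, edgeR adjusted p = 0.021), and the call was lost without the dodecaploid culture (0.0724), the remaining mouth culture (0.0625) or the barbel (0.0511), and without the scaling between libraries (0.088). Collagen I alpha-1 (PB.28181) had 0 to 44.4 CPM in cultures and 15.6 to 573 CPM in tissues, with 12 against 190 reads and a pooled ratio of 0.0728 (counting interval 0.0406 to 0.131). Most reads of that locus carried no protein name, however, and with all its transcripts it had 357 to 538 CPM in cultures and 85.6 to 1577 CPM in tissues, so the low named level in cultures is not a low level of the whole locus. Collagen I alpha-2 (PB.4789) had 2 reads in cultures and 36 in tissues. A second collagen I alpha-2 locus (PB.3632) differed less, with 8 against 21 reads, a pooled ratio of 0.439 (0.195 to 0.992). Of 3 collagen XIV-like loci, which encode a fibril-associated collagen, the most read, PB.3376, had 72.2 to 422 CPM in cultures and 0 to 19.6 CPM in tissues, with a pooled ratio of 32.7 (13.4 to 79.9). PB.4626 overlapped, with 15.4 to 77.8 CPM in cultures and 0 to 47.8 CPM in tissues, and PB.21615, named after its values were seen, had 0 reads in cultures and 6 in tissues.

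Several rare loci were read almost only in cultures. Collagen IX alpha-1 (PB.5602, named after its values were seen), from a cartilage collagen in mammals, had 31 reads in 4 of the 5 white cultures and none in tissues. It was at least 11.9-fold higher at the limit of 3 reads over the tissues. A collagen IX alpha-2 locus (PB.22165, also named after its values were seen) had 4 reads in the cultures and 1 in the tissues. Fibronectin-like (PB.10447), an adhesive glycoprotein, had 15 reads against 0, matrix metalloproteinase-9-like (PB.19843), a gelatinase, 18 against 0, and an integrin beta-3 locus (PB.22837) 14 against 0. All these reads of matrix metalloproteinase-9 were in the 2 skin cultures, at 61.7 and 111 CPM. The skin cultures also had the thrombospondin-4-like locus PB.24323 at 30.9 and 100 CPM, with 0 CPM in the mouth cultures. These are the white cultures with the highest connective tissue marker sums, and the part of such cells in these loci was not tested. A collagen X-like locus (PB.5888), a short-chain collagen, was instead highest in the dodecaploid and the remaining mouth culture, at 165 and 377 CPM, against 0 to 20.7 CPM in the other white cultures.

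Other genes of matrix assembly and adhesion were counted from lists. Over all 1864 loci tested, 27.6% were higher and 29.3% lower in white cultures. Most list loci had too few reads to be tested, and which group gave the tested loci enough reads was not determined. Their calls are therefore not taken as independent of how they entered. Of 15 collagen synthesis and crosslinking loci, 3 were tested and 2 rose in white cultures: lysyl oxidase homolog 2B-like, a collagen crosslinking enzyme (log2 fold change 4.07 ± 0.51), and serpin H1, the collagen chaperone (1.39 ± 0.52). Of 8 hemidesmosome and basement membrane partner loci, 4 were tested and 3 fell, 2 plectin-like loci (-1.65 ± 0.50 and -1.44 ± 0.44) and a dystonin-like locus (-4.03 ± 0.65), which link integrins and collagen XVII to keratin filaments. The tetraspanin CD151 did not pass (0.54 ± 0.42, edgeR adjusted p = 0.281). Of 23 cytoplasmic integrin adhesion loci, 3 were tested and filamin-B, an actin crosslinker that binds integrin tails, fell (-2.82 ± 0.48). Of 15 loci of protease inhibitors and sheddases, 4 were tested, all of the ADAM family, and these 4 rose, from 1.87 ± 0.51 for ADAM10 to 7.35 ± 0.71 for ADAM8a. The 1 tested locus of 19 other matrix loci did not pass. Immune markers, mostly the HLA class II gamma chain, differed beside these loci, with 0 to 20.7 CPM in white cultures and 903 to 5185 CPM in white tissues. Of 12 tested epithelial marker loci, 1 rose and 7 fell in white cultures. The part of these markers in the member results was not tested.

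The sites differed between the white cultures and the tissues, so the comparison was repeated with mouth rim and skin only. The difference in library set remained. There 21 members had enough reads, 9 rose and 1 fell, beside 34.9% of all 2671 loci tested, 459 higher and 474 lower. Laminin gamma-2 had 0 reads in these 2 tissues and entered only through the cultures, whose pooled share was at least 71.0-fold higher at the limit of 3 reads. Integrin alpha-V entered in the same way, with 89 reads in cultures and 3 in these tissues (pooled ratio 13.6, counting interval 4.29 to 42.8). So did integrin beta-1 (PB.3877), with 237 against 1 read (108, 15.2 to 772). Integrin alpha-2, collagen XIV-like PB.3376 and PB.5602 had at most 1 read in each of these tissues. The number that rose is therefore not independent of how such loci entered. The collagen XVII loci kept log2 fold changes of 1.20 ± 0.56 (PB.12291) and 1.86 ± 0.79 (PB.8081) with fewer libraries, and did not pass (edgeR adjusted p = 0.111 and 0.083).

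The comparison of green with white sturgeon cultures asks how the matrix genes of cultured epithelial cells differ between the species. The tested laminin chains did not pass the test. Kindlin-1, both collagen XVII loci and integrins alpha-6, beta-1, alpha-V and beta-6 were lower in green cultures. The collagen XV locus PB.14912 and integrin beta-1-binding protein 1 were higher. In the edgeR test 15 member loci had enough reads, of which 2 rose, 7 fell and 6 did not pass. Over all 2126 loci tested, 57.5% passed, 29.1% higher and 28.4% lower in green cultures. The libraries did not overlap for 7 of the 15 members and for 37.6% of all loci tested. Without the ampullae culture of unstated sex, 2 rose and 9 fell, beside 60.7% of all 1966 loci then tested. Collagen XV and integrin beta-1-binding protein 1 entered only through the green cultures, and integrin beta-1, kindlin-1 and a collagen XVII locus only through the white cultures. Integrin alpha-V, SPARC and the beta-5-like locus PB.12144 passed the read filter in 5 white cultures but in only 1 green culture. Integrin beta-6 passed it in 5 white and 2 green cultures. The calls and the lack of overlap of these loci are therefore not independent of how they entered. All but 1 of the green cultures belong to another set of libraries than the white cultures, as the numbering of the labels shows, they were started differently, and names came from another species, the sterlet. Sites differed too: the white cultures came from mouth rim and skin, and of these sites the green cultures shared only the mouth rim. Species, site, library set and culture start cannot be told apart here.

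**Figure D3:**
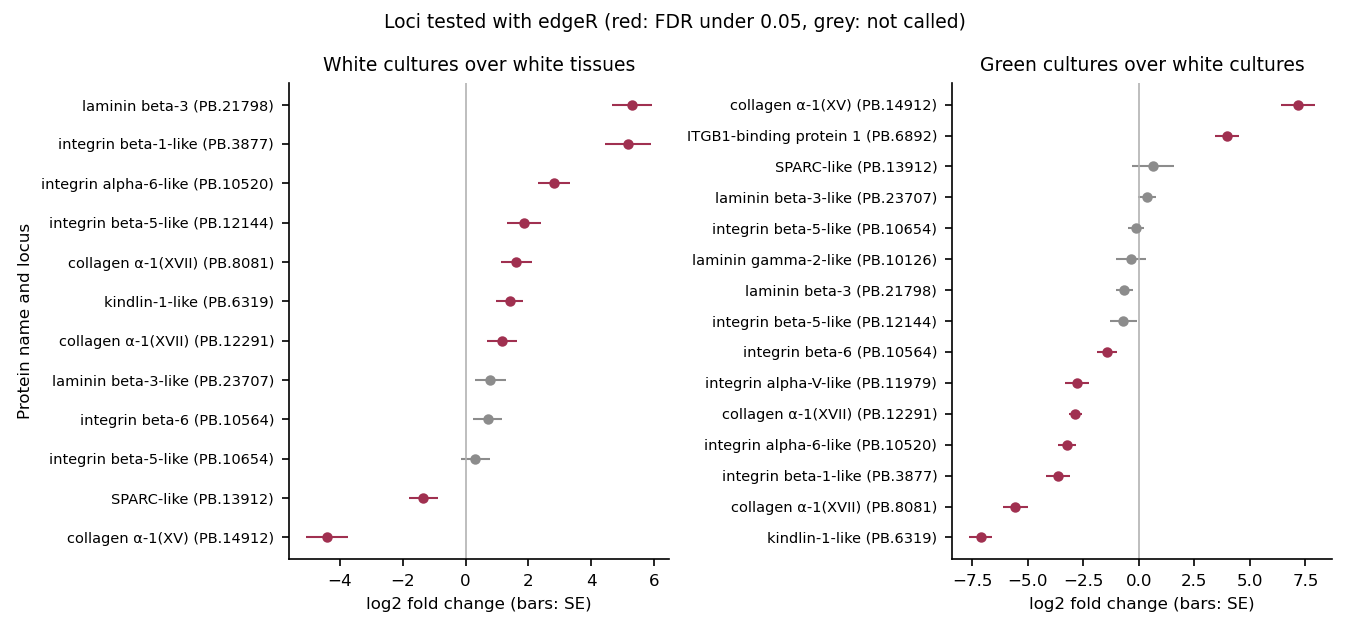
Log2 fold change with its standard error (horizontal axis) for the tested member loci (vertical axis), in green against white cultures and in white cultures against white tissues, with red for loci under a false discovery rate of 0.05. Laminin beta-3 is high in white cultures against tissues (5.29) and near 0 between the cultures (-0.66), and kindlin-1 lies farthest to the left between the cultures (-7.13).

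Kindlin-1 (PB.6319) had a lowest value of 0, a median of 4.36 and a highest value of 24.2 CPM in the 6 green cultures, against 696 to 926 CPM in the white cultures. The groups were far apart (log2 fold change -7.13 ± 0.51, edgeR adjusted p = 1.2e-07). The locus had entered the test only through the white cultures. The green ampullae culture from the library set of the white cultures had no read of it. Kindlin-2 (PB.14848), the kindlin of connective tissue cells, was read only in the fibroblast and adipocyte library, at 16.5 CPM. Integrin beta-1-binding protein 1 (PB.6892), a cytoplasmic protein that competes for the beta-1 tail in mammals, had 67.2 to 184 CPM in green cultures and 0 to 17.4 CPM in white cultures (log2 fold change 3.96 ± 0.53, edgeR adjusted p = 2.14e-05). It entered the test only through the green cultures, and no longer had enough reads when any 1 of 5 green cultures was left out.

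Both collagen XVII loci were lower in green cultures. The main locus (PB.12291) had 245 to 500 CPM with a median of 468 CPM in green cultures, against 2107 to 3855 CPM in white cultures (log2 fold change -2.86 ± 0.30, edgeR adjusted p = 2.29e-06). The other (PB.8081) had 0 to 29.9 CPM, against 255 to 1062 CPM (-5.57 ± 0.58, adjusted p = 2.24e-06). Neither locus overlapped, though the second entered the test only through the white cultures. That locus gave 3.05% of the collagen XVII reads in green cultures and 18.01% in white cultures. Collagen XV (PB.14912) lay the other way, with 329 to 2549 CPM and a median of 1064 CPM in green cultures, against 0 to 24.1 CPM in white cultures (7.15 ± 0.77, edgeR adjusted p = 2.62e-06). The lowest green value, 329 CPM, was the ampullae culture of the white library set, and it too lay above every white culture. Collagen XV had entered the test only through the green cultures. The collagen XV-like locus PB.4305 did not share this, with 25 against 26 reads, a pooled ratio of 0.413 (counting interval 0.238 to 0.715).

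Integrin alpha-6 (PB.10520) had 82.7 to 194 CPM with a median of 158 CPM in green cultures, against 682 to 2115 CPM in white cultures (log2 fold change -3.23 ± 0.39, edgeR adjusted p = 7.97e-06). Integrin beta-1-like (PB.3877) had 16.5 to 59.7 CPM in green cultures, against 96.3 to 1011 CPM in white cultures (-3.64 ± 0.53, adjusted p = 4.29e-05). Neither overlapped. Integrin alpha-V (PB.11979), with 10.96 to 97.1 CPM against 80.2 to 248 CPM, and integrin beta-6 (PB.10564), with 24.2 to 157 CPM against 104 to 289 CPM, overlapped through 1 and 2 green cultures, the ampullae culture of unstated sex and for integrin beta-6 also the female palate culture (-2.78 ± 0.54, edgeR adjusted p = 0.000496, and -1.44 ± 0.47, adjusted p = 0.0156). With the library set as a covariate, which rests on that 1 culture, integrin beta-1 kept a log2 fold change of -2.99 ± 1.11 but did not pass (edgeR adjusted p = 0.0694), integrins alpha-V (-0.83) and beta-6 (-0.46) did not pass, and integrin alpha-6 did (-2.76, adjusted p = 0.0279). Integrin beta-2-like (PB.10343), the leukocyte chain in mammals, had too few reads to be tested but more in green cultures, with 36.5 to 371 CPM against 0 to 178 CPM and a pooled ratio of 3.13 (counting interval 2.10 to 4.68). That ratio was 1.76 (1.14 to 2.72) without the female ampullae culture and 6.44 (3.51 to 11.8) without the white skin culture with the most reads. A further integrin alpha-V locus (PB.10489, named after its values were seen) had 14 against 7 reads, a pooled ratio of 0.859 (0.347 to 2.13).

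Laminin beta-3 (PB.21798) had 1252 to 4116 CPM with a median of 2660 CPM in green cultures, against 1396 to 6633 CPM in white cultures. The groups overlapped, and the difference was not past the spread (log2 fold change -0.66 ± 0.39, edgeR adjusted p = 0.156). Laminin gamma-2 (PB.10126) had 232 to 1187 CPM in green cultures, within the 78.3 to 2022 CPM of the white cultures (-0.37 ± 0.67, adjusted p = 0.657). The laminin beta-3-like locus, both beta-5-like integrins and SPARC did not pass either, with adjusted p between 0.332 and 0.773. For SPARC this hangs on 1 library: the ampullae culture of unstated sex had 1777 CPM, the other green cultures at most 69.5 CPM and the white cultures 113 to 290 CPM. Without that culture SPARC fell (log2 fold change -1.86, edgeR adjusted p = 0.000256), and so did the beta-5-like locus PB.12144 (-1.73, adjusted p = 0.000869). It was the only green culture past the read filter for these loci, so both calls depend on how the loci entered.

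Rare matrix loci with reads mainly in white cultures included collagen XIV-like PB.3376, at 0 to 37.3 CPM in green cultures and 72.2 to 422 CPM in white cultures (13 against 142 reads, pooled ratio 0.0393, counting interval 0.0223 to 0.0694). Collagen IX alpha-1 (PB.5602) was another, with 0 against 31 reads (at least 24.1-fold lower). The collagen IX alpha-2 locus PB.22165 did not share this, with 7 against 4 reads, a ratio of 0.751 (0.220 to 2.57). Integrin alpha-2 had 16 against 61 reads, a ratio of 0.113 (0.0649 to 0.195). Of the wider lists, 1 of 3 tested collagen synthesis loci fell in green cultures (lysyl oxidase homolog 2B-like, -3.35 ± 0.88), 1 of 2 cytoplasmic adhesion loci rose (an integrin-linked kinase locus, 1.18 ± 0.44), 1 of 3 hemidesmosome and basement membrane partners fell (plectin-like PB.3747, -1.49 ± 0.47) and 2 of 5 protease inhibitors and sheddases fell (ADAM8a, -3.54 ± 0.68, and ADAM10, -1.80 ± 0.36). Beside these, 5 of 11 tested epithelial marker loci fell in green cultures and none rose, and their part in the member results was not tested. Over all 2126 loci tested, 29.1% were higher and 28.4% lower in green cultures. Which group gave the list loci enough reads was not determined.

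Isoform use within the leading loci differed between libraries as well, and is described here with no test. At the main collagen XVII locus, transcript PB.12291.16 held 23.1% of the reads in green cultures (11.2% to 38.7% in single libraries), 54.0% in white cultures (41.4% to 69.0%) and 9.71% in white tissues (0% to 16.7%). At laminin beta-3, transcript PB.21798.53 held 25.9% in green cultures (20.8% to 33.1%) and 1.11% in white cultures (0.984% to 1.41%). It was not read in tissues, but these had only 66 reads of the locus, too few to show a share as low as in white cultures. The ranges of green and white cultures did not overlap for either transcript. At integrin beta-1-like, transcript PB.3877.22 had 51, 54 and 85 reads in the white mouth and the 2 skin cultures, 2 and 0 in the dodecaploid and remaining mouth cultures and 2 in all green cultures. Transcript PB.3877.33 had 0, 1 and 2 reads in the first 3 and 16 and 12 in the others, and held 85.4% of the locus in the fibroblast and adipocyte library and 80.9% in green cultures. The white cultures thus fell into 2 kinds at this locus, as they did at collagen XVII transcript PB.12291.19, which had 48, 45 and 62 reads in the mouth and skin cultures and none elsewhere.

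**Figure D4:**
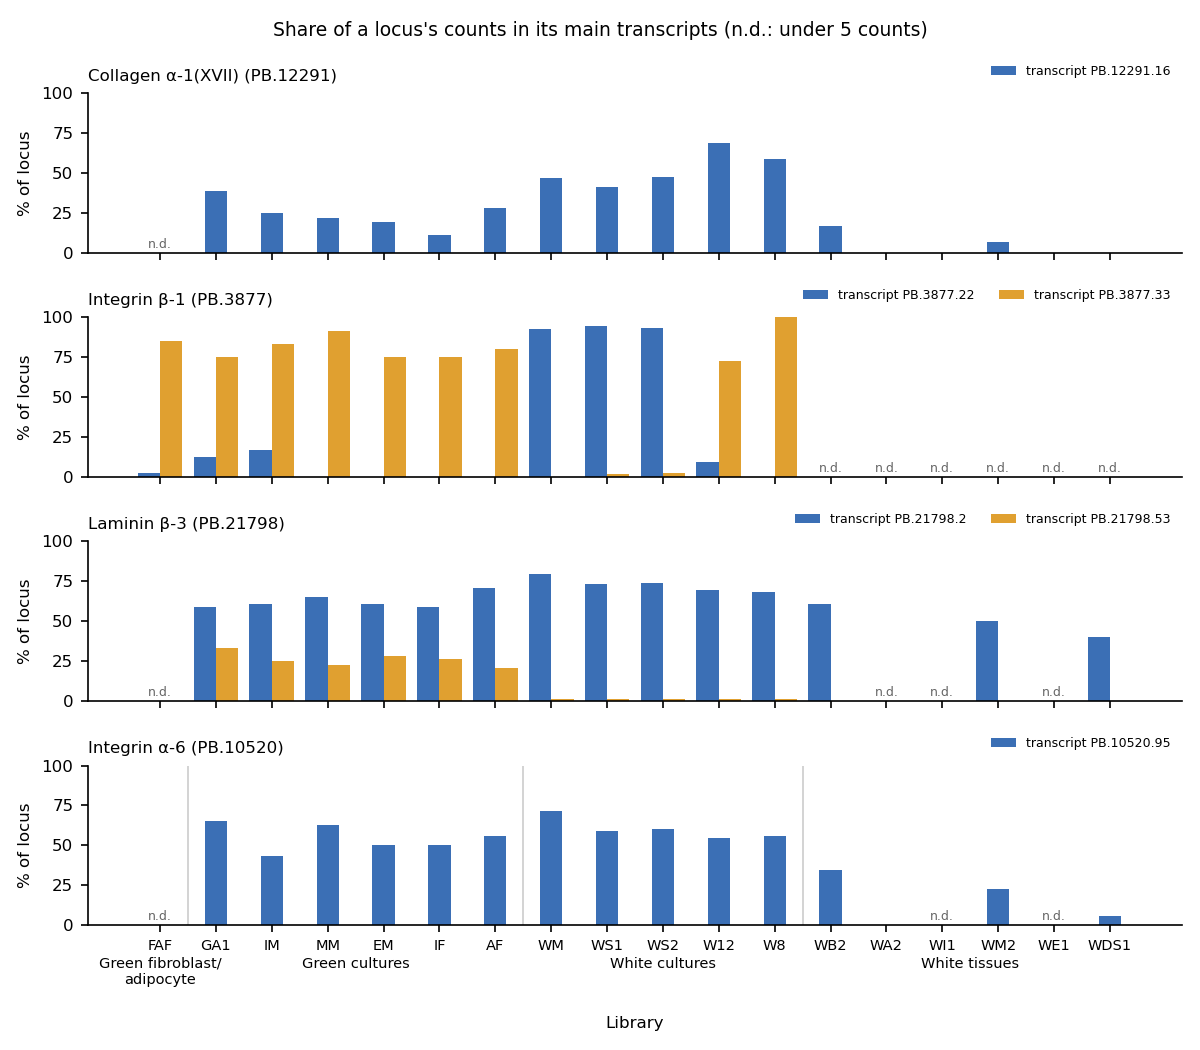
Percentage of the reads of a locus held by its main transcripts (vertical axis) in each library, for collagen XVII, integrin beta-1, laminin beta-3 and integrin alpha-6, with n.d. where the locus had under 5 reads. The collagen XVII transcript is highest in white cultures (54.0% of pooled reads), and the laminin beta-3 transcript PB.21798.53 stands at 20.8% or more in every green culture and at 1.41% or less in every white culture.

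The fibroblast and adipocyte culture shows the connective tissue side of the matrix in the green sturgeon. It is 1 library, so the values below have no replicate check and no test. Of 31 members with at least 20 reads in the 7 green libraries, 9 were more than 4-fold higher and 7 more than 4-fold lower than the pooled share of the 6 green epithelial cultures. Over all 4996 loci with as many reads, 5.42% were higher and 8.39% lower by that fold. Without the green ampullae culture of unstated sex, 9 of 24 members with as many reads were higher and 7 lower, against 6.15% and 8.73% of all 4777 loci. The limit of 20 reads counts the fibroblast and adipocyte library itself. Thrombospondin-4-like, the SPARC-related locus PB.4955 and both collagen I alpha-2 loci reached it only through that library, with 15, 2, 11 and 17 reads in the 6 cultures. So did collagen V alpha-2 (PB.11958), with 6 reads in the cultures. Without the ampullae culture of unstated sex, collagen I alpha-1 (6 culture reads) and integrin beta-like protein 1 (1 culture read) also reached it only in this way. Lower loci without a read in that library reached it only through the cultures. These calls are therefore not independent of how the loci entered.

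The higher loci were matrix proteins of connective tissue, with integrin beta-1 and an integrin-like protein among them. Thrombospondin-4-like (PB.24323), a matricellular protein of tendon and muscle in mammals, had 716 CPM in the fibroblast and adipocyte library and 0 to 53.02 CPM in green cultures (61.8-fold, counting interval 36.5 to 105). SMOC2, a SPARC-related calcium-binding protein (PB.4955), had 160 CPM, from 39 reads, against 2 reads in all green cultures (104-fold, 25.1 to 430), both in the ampullae culture of unstated sex; without it the library was at least 62.1-fold higher. Collagen I alpha-2 (PB.4789) had 350 CPM against 4.08 to 22.4 CPM (41.2-fold, 21.97 to 77.1), and its second locus PB.3632 had 103 CPM against 0 to 59.7 CPM (7.83-fold, 4.23 to 14.5, and 13.3-fold without the ampullae culture of unstated sex). Collagen V alpha-2 (PB.11958, named after its values were seen), which nucleates collagen I fibrils, was 12.4-fold higher (4.78 to 32.3) and 33.4-fold (7.60 to 147) without that culture, from 14 reads against 2. Integrin beta-like protein 1 (PB.9311), a secreted protein with integrin-type repeats, had 453 CPM against 0 to 254 CPM (16.7-fold, 11.4 to 24.5). The ampullae culture of unstated sex held all but 1 of its green culture reads, and without it the ratio was 525 (73.4 to 3763). Integrin beta-1-like (PB.3877) had 169 CPM against 16.5 to 59.7 CPM (4.65-fold, 3.06 to 7.06), and was the only integrin past 4-fold over the 6 cultures, with a beta-5-like locus joining it when 1 culture is left out.

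The same culture bore on the remaining higher loci, SPARC and collagen I alpha-1. SPARC had 1712 CPM in the fibroblast and adipocyte library and 1777 CPM in the green ampullae culture of unstated sex, and the other green cultures had 37.2 to 69.5 CPM. Collagen I alpha-1 had 218 CPM, against 254 CPM in that ampullae culture and a median of 1.65 CPM over the green cultures. Against all 6 green cultures the ratios were 7.24 (6.25 to 8.39) and 7.06 (4.68 to 10.6), and against the 5 green cultures of its own library set 29.2 and 42.2. With all transcripts of the collagen I alpha-1 locus, named or not, the library had 1082 CPM and the ampullae culture 3211 CPM, and the ratio was 2.75 (2.37 to 3.19) over all 6 green cultures, under 4-fold, and 15.7 (12.2 to 20.2) over those 5.

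The 7 lower loci were laminins, integrins and collagens of the basement membrane zone. Laminin beta-3, laminin gamma-2, the laminin beta-3-like locus, the main collagen XVII locus, integrin alpha-6 and integrin beta-6 had no read in the fibroblast and adipocyte library. At the limit of 3 reads, laminin beta-3 was at least 201-fold lower than in the green cultures, laminin gamma-2 at least 52.9-fold, collagen XVII at least 33.8-fold and integrin alpha-6 at least 10.8-fold. Collagen XV (PB.14912) was present at 32.9 CPM but stood below all green cultures (329 to 2549 CPM), with a ratio of 0.0259 (0.0129 to 0.0519). Not all basement membrane loci were lower. The collagen XV-like locus PB.4305 had 65.8 CPM, 3.41-fold higher (1.82 to 6.39), and nidogen-1-like was 3.11-fold higher (1.61 to 6.01), both within 4-fold. The ampullae culture of unstated sex held 24 of 25 and 22 of 24 of their green culture reads. Of the beta-5-like integrins, PB.10654 had 86.4 CPM against 74.3 to 291 CPM, within 4-fold. PB.12144 had 185 CPM against 29.2 to 373 CPM, 2.35-fold higher over all 6 green cultures and 4.13-fold (2.77 to 6.16) without the ampullae culture of unstated sex, which held the highest value. SPARC and the beta-5-like locus PB.10654 were the only members read in all 18 libraries.

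**Figure D5:**
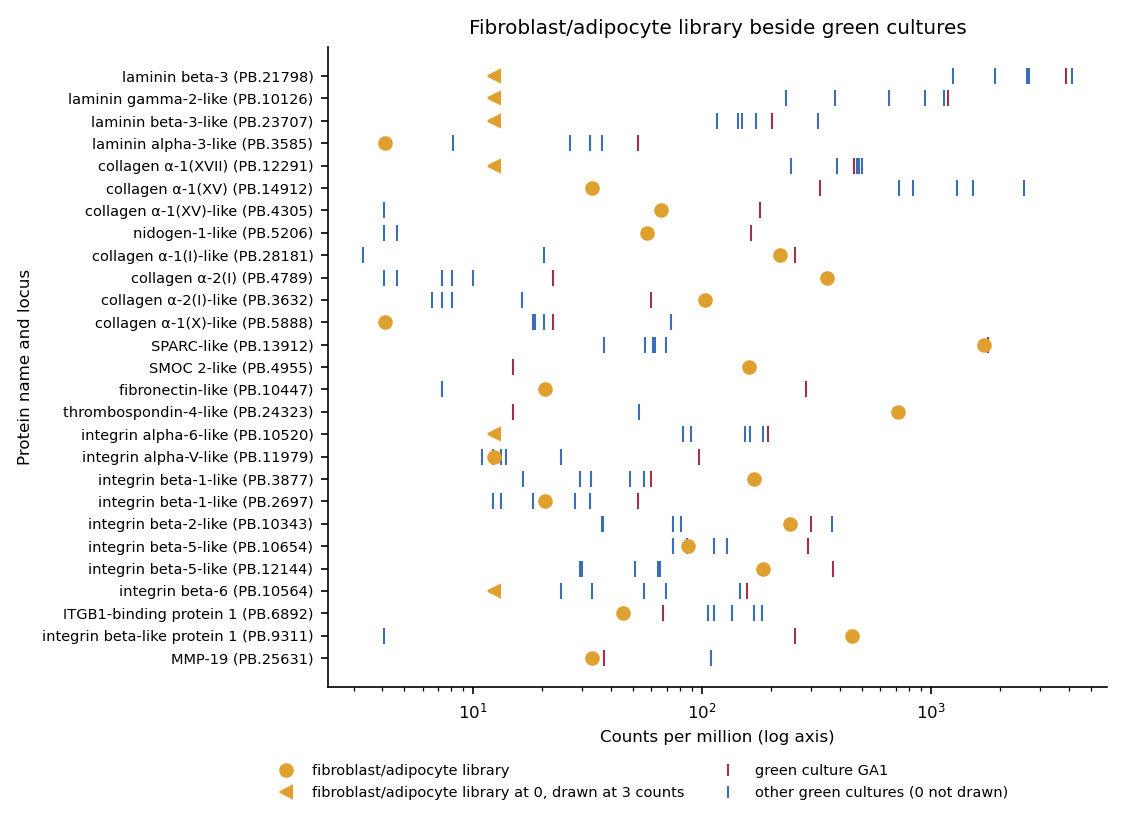
CPM on a log axis for member loci in the fibroblast and adipocyte library and in each of the 6 green cultures, with triangles for loci without a read, drawn at 3 reads, and the green ampullae culture of unstated sex in red. Thrombospondin-4-like (716 CPM) and collagen I alpha-2 (350 CPM) lie above all green cultures, laminin beta-3 lies at the triangle, and for SPARC the ampullae culture (1777 CPM) lies beside the fibroblast and adipocyte library (1712 CPM).

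The deposited names gave little matrix protease. The 7 loci named matrix metalloproteinase had 126 reads together, and summed to 57.6 CPM in the fibroblast and adipocyte library, 8.16 to 132 CPM in green cultures, 17.4 to 147 CPM in white cultures and 0 to 7.96 CPM in white tissues. The other 4 protease loci were disintegrin metalloproteinases with thrombospondin motifs, which matched through that word and had 9 reads, 3 in white cultures and 6 in white tissues. Matrix metalloproteinase-19 (PB.25631) was the most read, at 0 to 109 CPM in green cultures, 10.3 to 69.5 CPM in white cultures and 0 to 7.96 CPM in white tissues. None of these loci had enough reads to be tested.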

How the data were processed

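Full-length read counts per transcript were deposited by the authors for 18 libraries. They had clustered PacBio Iso-Seq reads with IsoSeq3, aligned them to a sterlet genome, filtered transcripts with Sqanti3 on supporting reads and named them by protein similarity to the sterlet; the aligner is not given in the sources used here. These counts are not normalized. Rows whose description matched the member words were summed by locus, other transcripts of a member locus were kept as a separate feature, and CPM was computed from library totals. Two-group tests used the edgeR 4.0.16 quasi-likelihood test in R 4.3.3, with TMM scaling, filterByExpr and Benjamini-Hochberg adjustment over all features, at a false discovery rate of 0.05. In simulated data 88.0% and 91.5% of 200 features changed 4-fold were recovered for white cultures against tissues and green against white cultures. Of the calls, 3.83% and 5.18% were false. The simulation used 1 fixed dispersion (spread between libraries beyond sampling) of 0.2 and no outlying library, so its recovery applies to that setting only. The fibroblast and adipocyte library was described by pooled ratios with 95% counting intervals. DESeq2 1.42.0, other filters, scalings, covariates and leaving out each library were tried. Members and lists were chosen with earlier results of these data known; named loci are the 3 most read per role, the 10 smallest adjusted p per direction, the 5 highest in the fibroblast and adipocyte library and those above 10% of a library's member reads, with exceptions marked. No library pair differed by less than sampling noise. Description names are cut at commas, as deposited.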

Additional observations from a re-analysis of the deposited data

Results flagged for a closer look

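Of 49 groups of values examined, 8 held a library whose gap to its nearest neighbour was large for the size of the group, and chance alone gives about 1 in 20. The green ampullae culture of unstated sex accounted for 4 of them: the summed integrins at 1755 CPM (next green culture 715), SPARC at 1777 CPM (next 69.5), and the beta-5-like integrins PB.10654 at 291 CPM (next 128) and PB.12144 at 373 CPM (next 65.3). Its connective tissue marker sum of 7288 CPM moved with these values, and the part of such cells was not tested. The barbel accounted for 3 among the white tissues: the integrin partners at 632 CPM (next tissue 265), kindlin-1 at 617 CPM (next 215) and laminin beta-3 at 225 CPM (next 79.6). In the white cultures the beta-5-like integrin PB.12144 stood at 259 CPM in the mouth culture (next 136). Some of the 49 groups share reads: the integrin sum includes both beta-5-like loci, and the partner sum includes kindlin-1. The 8 flags are therefore not independent, and their number cannot be set against 1 in 20.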

How the results depend on the processing

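For white cultures against tissues, 7 members rose and 2 fell. Without a filter on low reads 25 rose and 9 fell of 84, or 40.5%, against 22.5% of all loci. At a false discovery rate of 0.01, 4 rose and 1 fell, or 41.7%, against 40.8% of all loci. Without TMM 8 rose and 1 fell of 12, beside 54.0% of all loci called. With a stricter filter 7 rose and 1 fell of 12, beside 55.5%. With mouth rim and skin only 9 rose and 1 fell of 21, beside 34.9%. With all cultures and a species covariate 8 rose and 1 fell of 13, beside 49.1%. Leaving out 1 library gave 6 to 10 that rose and 0 to 3 that fell, beside 49.8% to 57.3% of all loci called. The difference of the beta-5-like integrin PB.10654 then ran from -0.070 (without dorsal skin) to 0.56. For green against white cultures, 2 rose and 7 fell. Without a filter 3 rose and 20 fell of 82, or 28.0%, against 29.2% of all loci. With the library set as a covariate 3 rose and 4 fell, or 46.7%, against 21.8% of all loci. An alternative chosen after seeing the data left out the ampullae culture of unstated sex and used all transcripts of each locus. There 11 fell, and no share over all loci was computed. Leaving out 1 library gave 1 to 3 that rose and 7 to 9 that fell, beside 52.5% to 60.7% of all loci called. Uncalled differences turned for laminin gamma-2 (0.12 with a replicate block, 0.32 with the set covariate, and -0.69 to 0.14 with 1 library left out, highest without the second skin culture), PB.10654 (0.14 without a filter, 1.08 with the set covariate, and -0.50 to 0.058 with 1 library left out, above 0 without the male mouth or the female palate culture) and PB.12144 (1.251 with the set covariate). SPARC was -1.85 with a replicate block and -1.86 to 0.96 with 1 library left out, lowest without the ampullae culture, against 3.05 with the set covariate (edgeR adjusted p = 0.000529). Replicate numbers in the labels did not pair the libraries (own number best in 1 of 5 in each comparison). With a replicate block 5 rose and 2 fell, beside 48.1% of all loci called, and 2 rose and 9 fell, beside 57.3%. DESeq2 called 7 and 2, and 2 and 7, beside 59.8% and 59.1% of all loci.

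In the fibroblast and adipocyte library 11 loci were lower at a 2-fold limit, a count given without a share over all loci. Its matrix sum was 2926 CPM from transcripts with at least 10 reads and 4934 CPM with all transcripts of the member loci, and its integrin sum was 617 CPM with at least 10 reads. The mean tissue integrin sum was 242 CPM with at least 10 reads and 1012 CPM with all transcripts, against 501 CPM; the higher value is no integrin sum, since 1 locus with 2 integrin alpha-E-like reads (PB.17540) carried 516 polyubiquitin reads, and without that locus it was 580.5 CPM. The causes of the other changes were not tested. Depth limited the tests to 12 and 15 of 95 loci.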

Other observations

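Proteases whose names did not match the member words held more reads than the members named matrix metalloproteinase, and were chosen after their values were seen. A collagenase 3-like locus (PB.26643), an enzyme that cuts fibrillar collagen, had 4921 reads in all libraries. It stood at 2872 CPM in the fibroblast and adipocyte library, at 991 to 6332 CPM in green cultures with a median of 3046 CPM, at 8.70 to 1244 CPM in white cultures with a median of 445 CPM, and at 0 to 15.6 CPM in white tissues, where 2 reads were found. The green and white cultures overlapped, and every green culture and the fibroblast and adipocyte library lay above the tissues. A 72 kDa type IV collagenase locus (PB.18156) had 485 reads and a stromelysin-3 locus (PB.16771) had 114 reads.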
